A study of Homo sapiens with 16 samples.

Results

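The HOX genes of the 4 human clusters were taken from windows of 2000 bp around annotated transcription start sites (TSSs), by gene symbols made of HOX, the letter A, B, C or D and a number. These 39 genes, of 63684 gene symbols in all, had 108 windows with distinct coordinates of 237274. The HOXA cluster held 11 genes, HOXB 10, HOXC 9 and HOXD 9, and the reads of a gene's windows were added up.

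Chromatin immunoprecipitation followed by sequencing (ChIP-seq) was carried out in BJ-5ta cells, an established human fibroblast line immortalized with telomerase. The antibody is labelled H3, whereas the study describes dimethylated lysine 9 of histone H3 (H3K9me2), so the libraries are called ChIP here, and the input is the sheared chromatin without immunoprecipitation. The study asked how loss of LEO1, a subunit of the PAF1 transcription elongation complex, changes this mark when fibroblasts leave the cell cycle. The 8 groups were wild-type (WT) and ΔLEO1 cells (labelled Leo1), each in 10% serum (proliferating) or after 10 days in 0.1% serum (quiescent), each as ChIP and as input, with libraries A and B in every group. All cells, WT included, carry the telomerase transgene. The ΔLEO1 cells are a single CRISPR/Cas9 knockout clone, clone 13, so that genotype and clone cannot be told apart. Nothing states that A and B were separate cultures, and p-values therefore measure the spread between these libraries only.

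The 7 ChIP libraries used held 2153836 to 3696942 reads over the TSS windows and the 8 inputs 3267811 to 9238282. ΔLEO1 10% ChIP A held 54 reads, none at a HOX window, and was left out, so every value for that group rests on library B alone. At LEO1's own windows, the ΔLEO1 inputs held 3.66 to 5.21 and the WT inputs 4.98 to 6.93 CPM (counts scaled to the size of each library) per window; the edited stretch may lie outside these windows, so this does not check the genotype. Over the HOX windows, ChIP libraries held 842 to 1490 reads and inputs 1369 to 4290.

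HOX genes encode homeodomain transcription factors that give cells their position along the body axis and the limbs, and their order along each chromosome follows their order of use along the body. Genes of the same number in different clusters are paralogs, low numbers acting towards the head and high numbers towards the tail and the limb tips. Adult fibroblasts keep a HOX pattern set by their origin, which Polycomb and Trithorax proteins maintain. H3K9me2 is a broad mark of silent chromatin, laid down largely by the methyltransferases G9a and GLP.

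Promoter sequences are shown for genes at both extremes of ChIP over input, each as the 250 bases before a RefSeq start site (build GRCh38.p14), 5′ to 3′ on the gene's strand, with CpG dinucleotides in capitals. HOXA9, HOXA11 and HOXA13 had the least ChIP signal among those available, and HOXA2, HOXD4 and HOXD13 lay above input.
HOXA9, chr7:27165538-27165787, minus strand: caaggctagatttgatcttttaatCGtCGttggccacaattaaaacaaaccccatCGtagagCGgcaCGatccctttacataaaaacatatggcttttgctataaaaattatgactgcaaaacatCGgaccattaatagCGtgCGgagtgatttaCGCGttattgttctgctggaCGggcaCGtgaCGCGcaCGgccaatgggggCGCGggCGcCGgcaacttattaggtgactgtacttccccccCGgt
HOXA11, chr7:27185233-27185482, minus strand: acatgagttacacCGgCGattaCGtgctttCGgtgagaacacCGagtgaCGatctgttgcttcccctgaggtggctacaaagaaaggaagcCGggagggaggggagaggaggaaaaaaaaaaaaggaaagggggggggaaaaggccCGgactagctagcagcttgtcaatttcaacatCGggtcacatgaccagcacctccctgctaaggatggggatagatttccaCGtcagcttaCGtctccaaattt
HOXA13, chr7:27200092-27200341, minus strand: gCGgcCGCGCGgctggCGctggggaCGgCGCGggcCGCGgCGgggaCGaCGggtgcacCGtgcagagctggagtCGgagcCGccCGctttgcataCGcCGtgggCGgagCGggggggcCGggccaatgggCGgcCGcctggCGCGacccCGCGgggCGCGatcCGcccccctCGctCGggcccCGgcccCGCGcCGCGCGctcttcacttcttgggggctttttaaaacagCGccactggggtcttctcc
HOXA2, chr7:27102684-27102933, minus strand: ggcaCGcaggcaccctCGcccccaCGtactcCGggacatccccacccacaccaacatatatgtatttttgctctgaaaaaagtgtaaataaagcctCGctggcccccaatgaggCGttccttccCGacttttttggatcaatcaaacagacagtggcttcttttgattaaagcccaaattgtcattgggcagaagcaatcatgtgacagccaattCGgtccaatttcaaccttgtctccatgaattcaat
HOXD4, chr2:176151300-176151549, plus strand: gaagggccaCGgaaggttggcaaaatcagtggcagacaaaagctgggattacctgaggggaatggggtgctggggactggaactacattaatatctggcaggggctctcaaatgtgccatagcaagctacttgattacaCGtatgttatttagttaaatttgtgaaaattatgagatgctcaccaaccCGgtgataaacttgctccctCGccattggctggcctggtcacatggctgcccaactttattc
HOXD13, chr2:176092471-176092720, plus strand: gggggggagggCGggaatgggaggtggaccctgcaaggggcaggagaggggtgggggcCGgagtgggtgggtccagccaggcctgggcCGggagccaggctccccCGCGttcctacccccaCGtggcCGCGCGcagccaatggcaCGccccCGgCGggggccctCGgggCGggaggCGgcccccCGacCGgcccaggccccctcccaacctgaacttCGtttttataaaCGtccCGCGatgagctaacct

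These sequences hold 20 CpGs at HOXA9, 11 at HOXA11, 40 at HOXA13, 8 at HOXA2, 4 at HOXD4 and 21 at HOXD13, beside a median of 11 over all 35116 promoters of that length. Low ChIP signal was thus found both at a promoter at that median and at one far above it. RefSeq promoters were matched by gene symbol for 20 of the 39 genes.

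Tests of ChIP against input, taken in either direction and averaged over the 4 groups, called 19 of the 39 HOX genes lower and 8 higher, while 12 were not called (edgeR quasi-likelihood, Benjamini-Hochberg adjusted p under 0.05). Over all 57627 genes tested, 33.8% were called lower and 39.3% higher, beside 48.7% and 20.5% of the HOX genes. The HOX median was -0.30 on the log2 scale against 0.13 for all genes. Library totals were scaled by TMM (trimmed mean of M-values), and the direction against input depended on this step. Without TMM 15 HOX genes were called lower and 13 higher, and with totals over the deposited peak regions 39 lower and none higher. Of all genes called, 53.7% were higher under TMM, 64.5% without it and 0.0142% with peak totals. Peak regions had a median ratio of ChIP to input of 3.21, so scaling to them lowers genes in general against input. TMM removal moved the median of all genes to 0.37 and peak totals moved it to -1.42. Relative to that median the HOX genes stood at -0.43, -0.41 and -0.50 under the 3 scalings, with 26, 26 and 27 of the 39 below it. The count called higher fell from 8 to 5 without ΔLEO1 0.1% ChIP A.

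**Figure D1:**
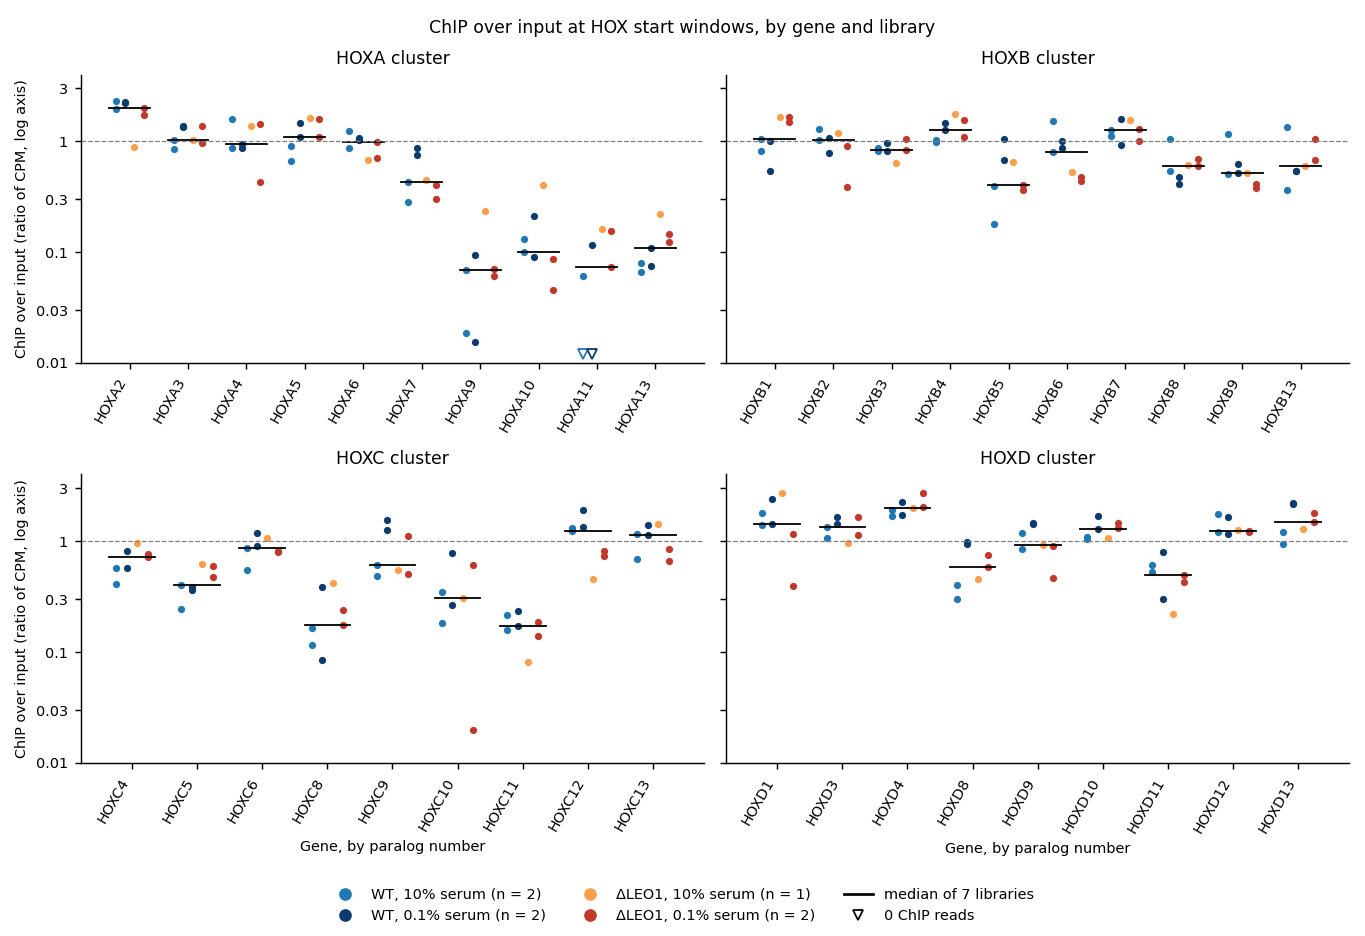
The ratio of ChIP to input CPM (log axis, 1 at the dashed line) is plotted for 38 HOX genes, in the order of their numbers within each cluster, with a point for each of the 7 ChIP libraries coloured by group and a bar at their median. The 7 points of HOXA9 lie between 0.016 and 0.234 and those of HOXD4 at or above 1.68 under TMM scaling, and open triangles stand for the 2 libraries with 0 reads at HOXA11.

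By cluster, HOXA had 6 genes called lower, 2 higher and 3 not called, HOXB 6, 0 and 4, HOXC 5, 0 and 4, and HOXD 2, 6 and 1. Cluster medians were -0.80 for HOXA, -0.37 for HOXB, -0.49 for HOXC and 0.35 for HOXD on the log2 scale. HOXD was thus the cluster with its median above input. Under peak totals its members too lay below input, as did the median of all genes (-1.42).

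The lowest ChIP signal of all clusters lay at the posterior end of HOXA. HOXA9, a regulator of blood progenitors and posterior identity, has 7 windows between 27164457 and 27176180 on chromosome 7, with the cluster ending at 27201091 (coordinates as deposited, hg38). Its ChIP reads numbered 9 and 3 in WT 10% A and B, 21 in ΔLEO1 10% B, 2 and 9 in WT 0.1% A and B, and 12 and 7 in ΔLEO1 0.1% A and B, while each input held 104 to 380. Every ChIP library was far below its input, ΔLEO1 10% B least so. The ratio of ChIP to input CPM, each ChIP library over the input of the same letter and group, ran from 0.016 through a median of 0.069 to 0.234 over the 7 libraries. No pairing of ChIP with input by letter was seen in the counts, so ratios here follow the labels only. In the fit HOXA9 was lower than input by a log2 of -3.51 (SE 0.19, edgeR adjusted p = 4.81e-13), and 0.177% of all genes had a lower value.

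HOXA10, HOXA11 and HOXA13, which act in the developing uterus, forearm and digits, shared this low signal. HOXA11 had 2 and 0 ChIP reads in WT 10% A and B, 4 in ΔLEO1 10% B, 4 and 0 in WT 0.1%, and 4 and 4 in ΔLEO1 0.1%, where inputs held 548 reads in all. Both windows of HOXA11 lie within 27184223 to 27186232 and overlap almost wholly, so most of its reads count 2 times. The SE and p do not take this into account, and no limit is drawn from the libraries with 0 reads. In the fit HOXA11 stood at -3.18 (SE 0.24, edgeR adjusted p = 6.08e-11). HOXA13 reads ranged from 2 to 8 in the ChIP libraries, and its ratios from 0.066 through 0.108 to 0.219, with a log2 of -2.65. HOXA10 gave -2.56, with ratios from 0.046 through 0.101 to 0.400, the highest again in ΔLEO1 10% B. All 4 genes were called lower in each of the 4 groups taken singly as well. The windows of HOXA9 run into those of HOXA10, so these genes share reads and are not independent.

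The HOXA cluster therefore split between HOXA7 and HOXA9, a border chosen after the values were seen and given without a test. The windows of HOXA2 to HOXA7 together had ratios from 0.870 through 1.05 to 1.20 in the 7 libraries, and those of HOXA9 to HOXA13 from 0.0547 through 0.0767 to 0.267. All 7 libraries had the higher ratio on the HOXA2 side, by 3.79 times in ΔLEO1 10% B and by at least 10.3 times in each of the others. Each of the 15 windows from HOXA9 to HOXA13 had a pooled ratio between 0.0469 and 0.180, whereas the 19 from HOXA2 to HOXA7 ran from 0.308 to 1.75. The gap between the last window of HOXA7 and the first of HOXA9 is 5521 bp. Input did not show this step: median input levels were 3.97 to 6.18 CPM per window for HOXA2 to HOXA7 and 4.97 to 6.43 for HOXA9 to HOXA13, while ChIP medians were 2.54 to 7.33 and 0.466 to 0.598.

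**Figure D2:**
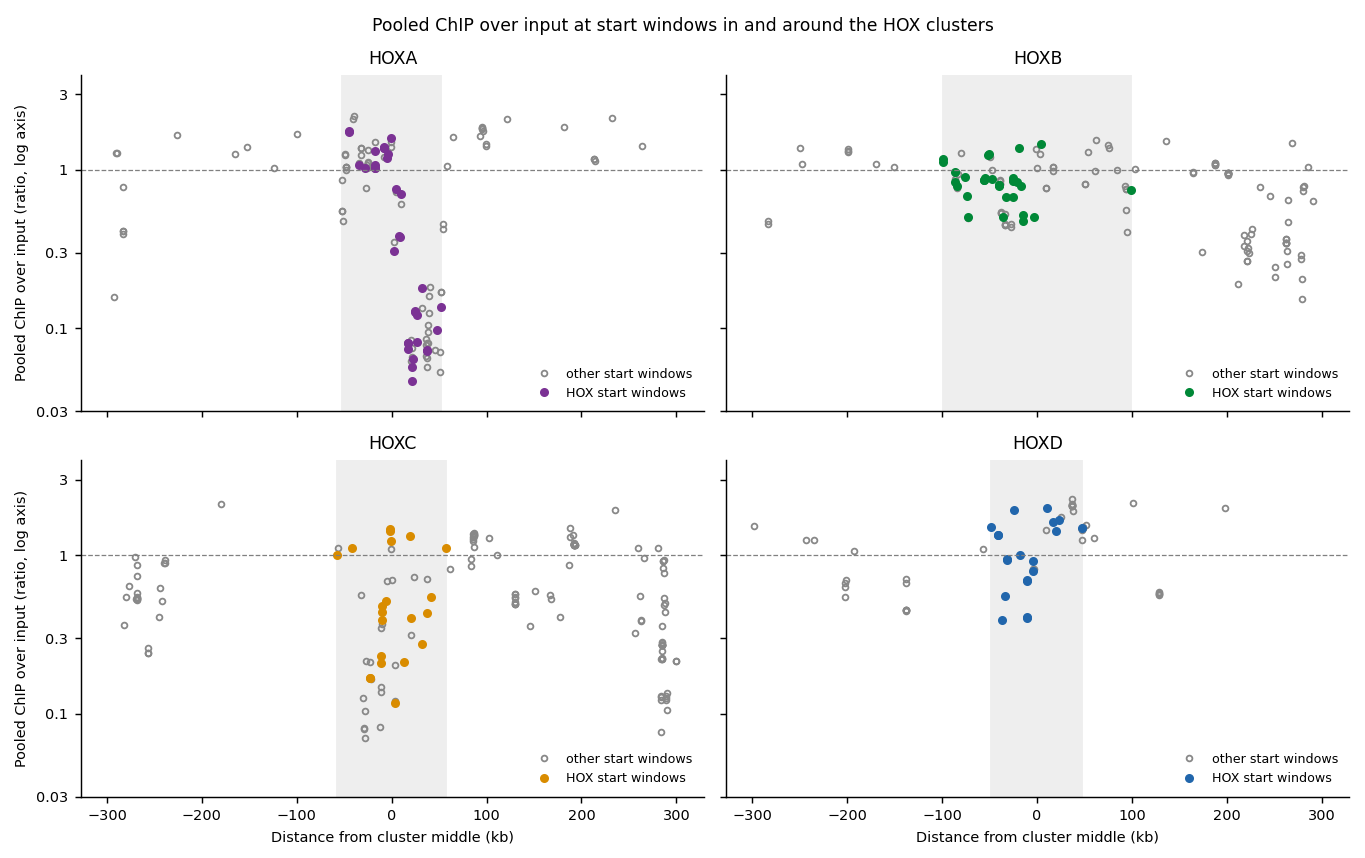
Pooled ChIP over input (log axis, 1 at the dashed line) is plotted for start-site windows with at least 10 input reads against its distance in kb from the middle of each cluster, with HOX windows filled, other windows open and the cluster shaded. The posterior HOXA windows lie between 0.0469 and 0.180, and those of HOXA2 to HOXA7 between 0.308 and 1.75 under TMM scaling.

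Within HOXA2 to HOXA7, genes differed in direction. HOXA2, which sets the identity of the second pharyngeal arch, had ratios from 0.883 through 1.98 to 2.29, the lowest in ΔLEO1 10% B. Over the groups its log2 was 0.64 (SE 0.16, edgeR adjusted p = 0.000849), and it was called higher in every group except ΔLEO1 10%, where it was -0.49. HOXA5, needed for lung development, was just past the threshold at 0.33 (edgeR adjusted p = 0.0491). Under peak totals both lay below input, HOXA2 at -0.95 and HOXA5 at -1.27. HOXA7, a trunk gene, had ratios from 0.28 through 0.433 to 0.875 and was called lower at a log2 of -1.12. HOXA3, HOXA4 and HOXA6 were not called, with log2 values of 0.17, 0.26 and -0.17.

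In the HOXB cluster on chromosome 17, at 48529910 to 48729750, 6 genes were called lower over the groups and the rest were not called. Taken singly, WT 10% and WT 0.1% each had 1 of 10 HOXB genes called lower, ΔLEO1 10% had 0 and ΔLEO1 0.1% had 4. Of all genes, 27.3%, 23.9%, 17.1% and 23.8% were called lower in these groups. The lowest over the groups were HOXB5, which acts in enteric neural crest, at -0.89 (SE 0.19, edgeR adjusted p = 0.000269) and HOXB9 at -0.84 (adjusted p = 0.00099). The highest were HOXB4, a blood stem cell factor, at 0.34 and HOXB7 at 0.30, neither of which passed the test (edgeR adjusted p = 0.0781 and 0.0541). No HOXB window had a pooled ratio under 0.25 or over 1.5. HOXB13, known from the prostate and the tail end, was called lower by -0.43, the cluster's most posterior gene standing above HOXB5.

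In the HOXC cluster, on chromosome 12 at 53937831 to 54054835, low signal lay in its middle. HOXC11, a hindlimb gene, had 4 and 6 ChIP reads in WT 10%, 2 in ΔLEO1 10% B, 6 and 6 in WT 0.1%, and 6 and 4 in ΔLEO1 0.1%. Both windows of HOXC11 lie within 53972126 to 53974128 and overlap almost wholly. Most of its reads thus count 2 times, which the SE and p do not take into account. Its ratio ran from 0.081 through 0.171 to 0.237, all 7 libraries being below input, with a log2 of -2.41 (SE 0.18, edgeR adjusted p = 6.46e-11). HOXC8, which specifies brachial motor neurons, stood at -1.70 with ratios from 0.084 to 0.420. HOXC10, which acts in lumbar motor neurons, stood at -1.53, but its libraries disagreed: ΔLEO1 0.1% A held 44 reads and B a single read. HOXC12 and HOXC13, genes of the hair follicle at the 5′ end, were at -0.02 and 0.05 and were not called. The rank correlation of paralog number with log2 value was -0.76 over the 11 HOXA genes, -0.52 over 10 HOXB, 0.28 over 9 HOXC and -0.18 over 9 HOXD genes. Neighbouring genes share windows and libraries, so these are descriptions only.

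HOXD, on chromosome 2 at 176091721 to 176189668, held the HOX gene with the most ChIP signal. HOXD4, a neck and hindbrain gene, had 8.37 and 8.06 ChIP CPM per window in WT 10% A and B, 10.2 in ΔLEO1 10% B, 8.28 and 9.02 in WT 0.1%, and 8.97 and 9.23 in ΔLEO1 0.1%. Its inputs lay between 3.42 and 5.21, so that no ChIP library overlapped them. The log2 over input was 0.95 (SE 0.14, edgeR adjusted p = 2.24e-06), and 90.4% of all genes lay below it; with peak totals it was -0.61. HOXD1 (0.60), HOXD13 (0.53), HOXD12 (0.43), HOXD10 (0.35) and HOXD3 (0.33) were also called higher. HOXD13, the main gene of digit formation, had ratios from 0.948 through 1.48 to 2.21. HOXD11, a forearm gene between HOXD10 and HOXD12, was called lower at -1.15 with ratios from 0.222 through 0.491 to 0.800, and HOXD8 at -0.81.

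Paralogs of the same number differed most in group 9, where HOXD9 at -0.12 stood 3.39 log2 units above HOXA9. Group 13 followed with 3.18 between HOXD13 and HOXA13, then group 10 with 2.90 and group 11 with 2.03. Group 6 differed least, by 0.26. Posterior HOXA paralogs thus stood below those of HOXD.

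**Figure D3:**
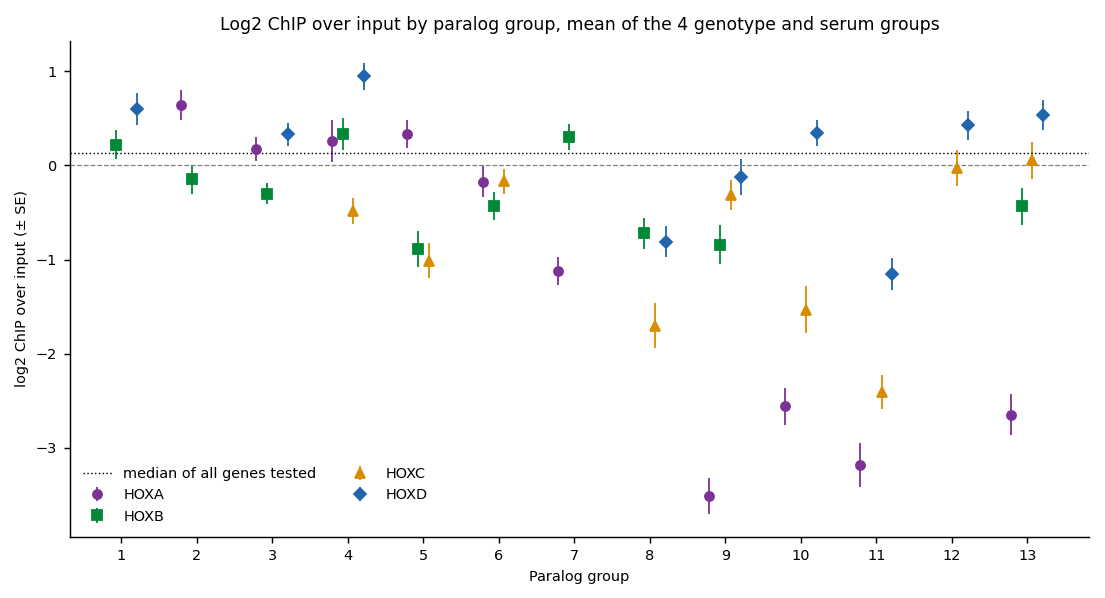
The log2 of ChIP over input, averaged over the 4 groups, is plotted against the paralog number for 38 HOX genes, with bars for its SE (7 ChIP and 8 input libraries), 0 dashed and the median of all genes (0.13) dotted. Paralogs of groups 9, 10, 11 and 13 spread from -3.51 to 0.53 under TMM scaling, and with peak totals all of them lie below 0.

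Windows of a single gene could also differ, in HOXC9 by 12.1 times. HOXC9, a trunk gene, had a window at chr12:53999161-54001161 with 12 ChIP and 227 input reads over all libraries, a ratio of 0.117, and another at chr12:53993895-53995895 with 123 and 192 reads, a ratio of 1.42. HOXA6 had pooled ratios of 1.59 at chr7:27146774-27148774 and 0.308 at chr7:27149603-27151603. HOXC6 spanned 5.29 times, from 0.275 to 1.46. The sum over a gene's windows averages such differences. Under a pooled ratio of 0.25 lay 21 of the 108 HOX windows (19.4%), 15 of HOXA and 6 of HOXC, beside 17.2% of all windows with at least 10 input reads. Above 1.5 lay 7, 3 of HOXA and 4 of HOXD, beside 19.3% of all windows.

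Ratios in single libraries were taken from the same counts as the fit. A ratio under 1 in all 7 ChIP libraries was seen for 13 HOX genes (33.3%), beside 27.7% of all genes, and over 1 in all 7 for HOXD4, HOXD10 and HOXD12 (7.69%), beside 27.7%. The other 23 had ratios on both sides. The share under 1 in all 7 was thus near that of all genes.

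Other start-site windows inside the clusters, some of which overlap HOX windows and share their reads, were set beside those around the clusters. Of 52 other windows inside the HOXA cluster, 23 had a pooled ratio under 0.25, against 3 of 34 windows outside it within 300 kb of its middle, and the medians were 0.550 and 1.28. In HOXC 13 of 23 other windows inside were under 0.25 and 18 of 114 outside. Inside HOXD the other windows had a median of 1.61, with 0 of 20 under 0.25, and outside 0.672. HOXB differed little, at 0.819 inside and 0.682 outside.

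Of the 23 noncoding RNA genes of the clusters, 13 were called lower (56.5%), 5 higher (21.7%) and 5 not, with a median of -0.52, beside 33.8% and 39.3% of all genes. HOXA11-AS, antisense to HOXA11, was lowest at -3.45 (edgeR adjusted p = 7.24e-12), with 1 to 25 ChIP reads beside 129 to 510 in the inputs. HOTTIP, which lies beyond HOXA13 and is known to act on the posterior HOXA genes, stood at -2.27, with 5 to 20 ChIP reads. HOTAIR, in HOXC and known for its link to Polycomb at HOXD, stood at -2.58, with 6 to 19 ChIP reads and 72 to 220 input reads. In HOXD, HAGLROS was highest at 1.12 (edgeR adjusted p = 6.45e-08), with ratios from 1.58 through 2.08 to 3.09, and HAGLR stood at 0.87. Under peak totals HAGLROS lay at -0.45. Reads of antisense genes that overlap a HOX gene cannot be told from those of that gene, since ChIP reads carry no strand of transcription.

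The microRNA genes of the clusters offered a contrast at matched products. MIR196B lies between HOXA9 and HOXA10, MIR196A1 in HOXB and MIR196A2 in HOXC, and their mature products, which are known to target HOX messages, share 1 seed. MIR10A lies in HOXB, beside HOXB4. The mature RNAs are shown from RefSeq, 5′ to 3′, with the seed (bases 2 to 8) in capitals.
hsa-miR-196b-5p: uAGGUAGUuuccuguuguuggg
hsa-miR-196a-5p: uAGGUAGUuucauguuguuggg
hsa-miR-10a-5p: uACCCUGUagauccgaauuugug

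MIR196B had 2, 0, 4, 0, 2, 0 and 0 ChIP reads in the 7 libraries beside 9 to 44 in each input, and was called lower at -2.64. MIR196A2 was lower at -0.53, MIR196A1 was called higher at 0.39 (edgeR adjusted p = 0.0432), and MIR10A at 0.25 was not called. The loci of the miR-196 family, with the same seed, thus spanned much of the range seen in the clusters.

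Neighbouring coding genes were called lower for 8 of 13 tested (61.5%, beside 33.8% of all genes), higher for 1 (7.69%, beside 39.3%) and not called for 4. CBX5, which lies beside HOXC and encodes the heterochromatin protein HP1α, was lowest at -1.72 (edgeR adjusted p = 1.36e-10). EVX1, a homeobox gene beyond HOXA13, was highest at 0.75 and lay at -0.89 under peak totals. Of the deposited peak regions, 2 lay inside the clusters, both in HOXD at HAGLR, with ratios of 3.23 and 2.56 beside a median of 3.21 over all peaks. This is 3.90 per Mb over the 0.513 Mb of the clusters and 5.25 per Mb of genome. Another 4 lay within 100 kb outside, 3 at HOXA and 1 at HOXC.

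Each group taken singly gave fewer calls against input. WT 10% had 15 HOX genes called lower and 2 higher, beside 27.3% and 29.7% of all genes. WT 0.1% had 10 and 5, beside 23.9% and 20.1%, ΔLEO1 10% 9 and 2, beside 17.1% and 14.4%, and ΔLEO1 0.1% 13 and 2, beside 23.8% and 19.6%. Beside HOXA9, HOXA10, HOXA11 and HOXA13, the genes called in every group were HOXC11, HOXD11 and HOXD4. HOXA7 was called lower in every group except WT 0.1%, where its log2 was -0.30.

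The comparison of ΔLEO1 with WT in quiescent cells called none of the 33 HOX genes that passed the filter on low counts (edgeR, and DESeq2 also 0), and 4 had an unadjusted p under 0.05. Over 52966 genes 0.0113% were called lower and 0% higher. In this and the later contrasts, shares of all genes are of those called after adjustment. The share of all genes under an unadjusted p of 0.05 is not given, so such HOX counts are not read as an excess. The other 6 genes, HOXA11, HOXA13, HOXB9, HOXC5, HOXC8 and HOXC11, had at most 9 ChIP reads in a library and were not tested. The HOX median was -0.19 and that of all genes -0.01, with 10 HOX genes above 0 and 23 below. The sign depended on the scaling: with peak totals these medians were 0.11 and 0.29. Then 0 HOX genes were called, and 84.2% of all genes called were higher in ΔLEO1. Libraries of the groups did not overlap for 3 HOX genes higher in ΔLEO1 (9.09%), HOXB1, HOXB8 and HOXB13, and for 9 lower (27.3%), beside 19.4% and 21.8% of all genes.

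HOXA7 had the smallest p in quiescent cells. Its ChIP level was 3.88 and 4.51 CPM per window in WT 0.1% A and B, 1.81 and 2.54 in ΔLEO1 0.1%, 2.26 and 2.80 in WT 10%, and 2.27 in ΔLEO1 10% B. The WT quiescent libraries were thus above the other 5. The log2 difference between genotypes in 0.1% serum was -0.91 (SE 0.25, edgeR adjusted p = 0.242), and that between sera in WT was 0.71 (SE 0.25, edgeR adjusted p = 0.448). These contrasts share the WT 0.1% libraries. Input of HOXA7 was 5.20 and 5.16 in WT 0.1% and 8.05 and 6.45 in WT 10%, and with the input difference taken off the ChIP differences were -1.17 and 1.15, neither called.

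HOXB1, a hindbrain gene, was the highest of the 33 at 0.79 (SE 0.30, edgeR adjusted p = 0.410), with 4.45 and 1.88 CPM per window in WT 0.1% and 5.43 and 6.62 in ΔLEO1 0.1%. HOXA9 stood at 0.54 and HOXB13 at 0.42 (edgeR adjusted p = 0.786 and 0.804). At the other end were HOXB5 at -0.98 and HOXA10 at -0.93 (adjusted p = 0.504 and 0.568). Single libraries decided several of these sizes: without WT 0.1% A or B, HOXA10 stood at -1.45 or -0.23, HOXB1 at 1.498 or 0.39 and HOXA9 at -0.11 or 1.52, and without ΔLEO1 0.1% A HOXB13 stood at 0.063. HOXB5 had 3.07 and 4.14 CPM per window in WT 0.1% and 1.36 and 1.61 in ΔLEO1 0.1%, which rest on 10, 11, 5 and 4 reads.

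**Figure D4:**
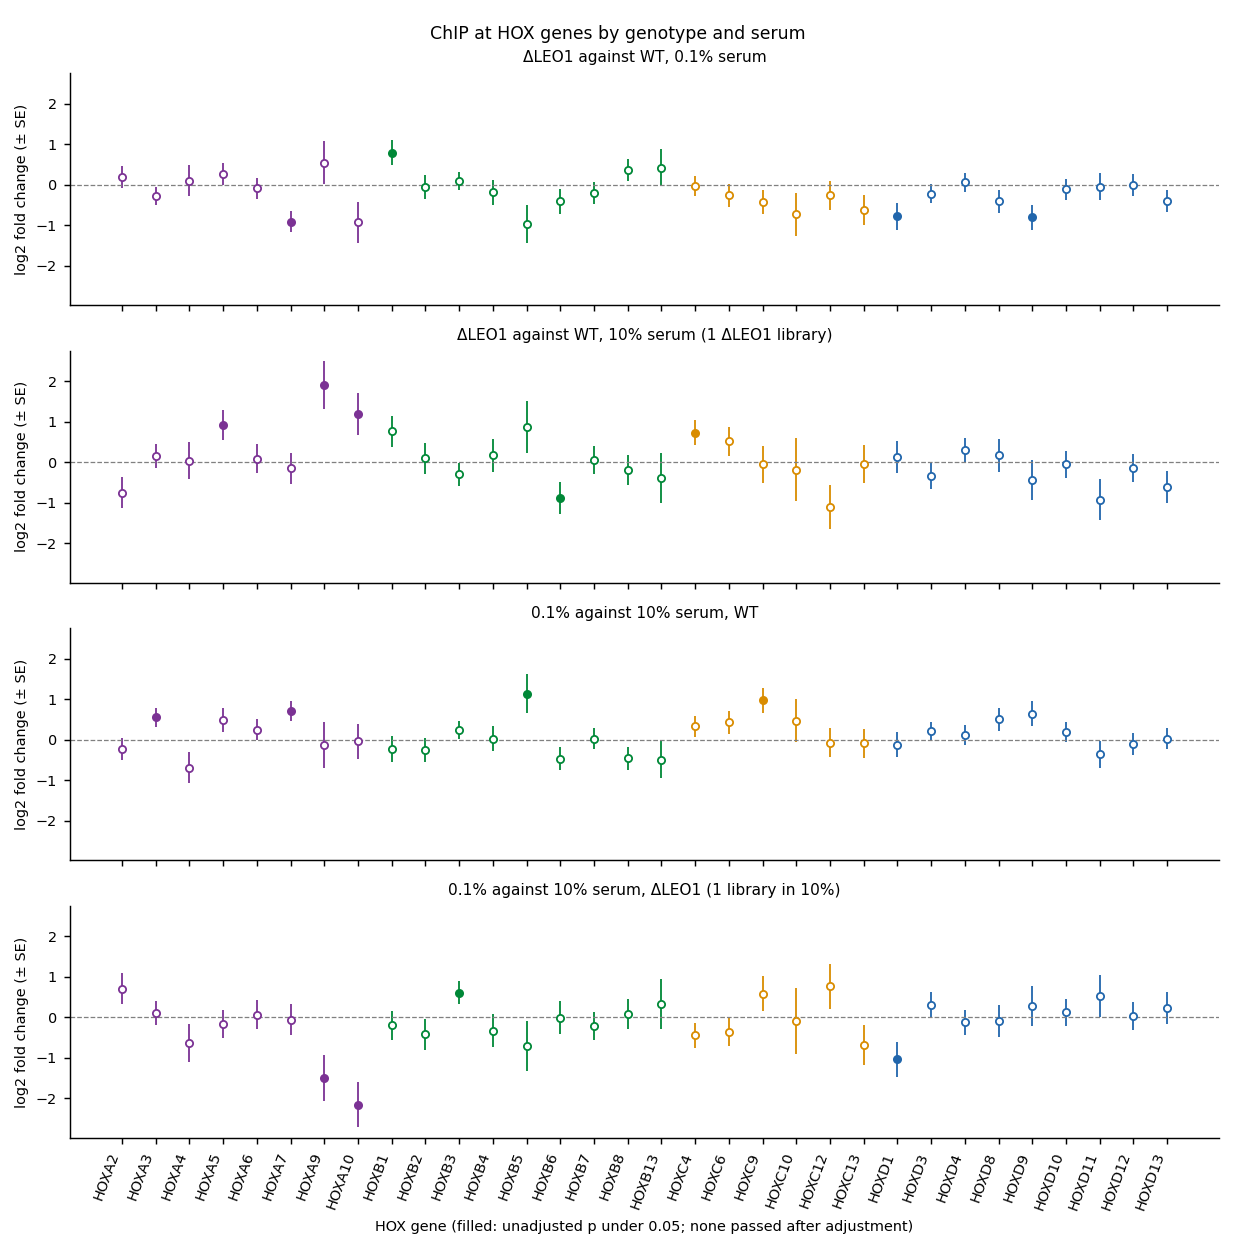
The log2 fold change of ChIP with its SE is plotted for 32 of the 33 HOX genes tested in the 4 genotype and serum contrasts, each in a panel, with filled points at an unadjusted p under 0.05. There are 4, 5, 4 and 4 filled points and none passed after adjustment; the ΔLEO1 10% group holds 1 library.

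In 10% serum none of the 33 was called between ΔLEO1 and WT either (edgeR, and DESeq2 also 0), with 5 at an unadjusted p under 0.05, beside 0.00378% of all genes called lower and 0% higher. The single ΔLEO1 library was assumed to vary like the other groups. HOXA9 had the largest difference at 1.90 (SE 0.59, edgeR adjusted p = 0.361), from 0.512 and 0.144 CPM per window in WT to 1.46 in ΔLEO1 B. HOXA10 at 1.19 and HOXA5 at 0.91 followed, and HOXC12 at -1.10, HOXD11 at -0.93 and HOXB6 at -0.88 were lowest (edgeR adjusted p from 0.504 to 0.628), HOXB6 at -0.49 without WT 10% A. With a lone library, groups did not overlap for 13 HOX genes higher and 8 lower (39.4% and 24.2%), beside 36.1% and 36.1% of all genes.

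Serum withdrawal in WT cells called none of the 33 HOX genes (edgeR, and DESeq2 also 0), as it called 0% of all genes in each direction, and 4 HOX genes had an unadjusted p under 0.05. HOXB5 was highest at 1.14 (SE 0.48, edgeR adjusted p = 0.523), from 0.797 and 1.68 CPM per window in 10% serum to 3.07 and 4.14 in 0.1%. HOXC9 followed at 0.98 (adjusted p = 0.402), from 3.06 and 2.69 to 5.93 and 5.39. HOXA4, which acts in the neck, was lowest at -0.69, followed by HOXB13 at -0.49 and HOXB6 at -0.46 (edgeR adjusted p from 0.616 to 0.786). Without WT 10% A or B these became -0.22 or -1.06 for HOXA4, -1.02 or 0.51 for HOXB13 and -0.078 or -0.79 for HOXB6. Groups did not overlap for 12 HOX genes higher in 0.1% serum (36.4%) and 5 lower (15.2%), beside 20% and 20.4% of all genes.

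In ΔLEO1 cells serum withdrawal also called none (edgeR, and DESeq2 also 0), with 4 at an unadjusted p under 0.05, beside 0.00189% of all genes called lower and 0% higher. HOXA10 was lowest at -2.15 (SE 0.56, edgeR adjusted p = 0.273), from 2.31 CPM per window in 10% B to 0.272 and 0.502 in 0.1% A and B. HOXA9 stood at -1.49 and HOXD1 at -1.03, while HOXC12 at 0.77, HOXA2 at 0.71 and HOXB3 at 0.62 were highest (edgeR adjusted p from 0.411 to 0.680). Without ΔLEO1 0.1% A, HOXD1 stood at -1.58, HOXC12 at 0.49 and HOXA2 at 0.42. Both posterior HOXA values rest on the library ΔLEO1 10% B, which also had the highest ratio over the whole stretch from HOXA9 to HOXA13. Groups did not overlap for 10 HOX genes higher and 13 lower (30.3% and 39.4%), beside 36.2% and 38.2% of all genes.

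The test of the difference between the serum effects called none of the 33 (edgeR, and DESeq2 also 0) and 0% of all genes, with HOXA10 at -2.12 (SE 0.73, edgeR adjusted p = 0.742) and HOXB5 at -1.85 (adjusted p = 0.835) under an unadjusted p of 0.05. HOXA9 at -1.36 was next, and HOXA2 at 0.93, HOXD11 at 0.88 and HOXC12 at 0.83 were highest (edgeR adjusted p from 0.863 to 0.907). HOXA9 stood at -2.10 without WT 10% A and at -0.39 without WT 0.1% B, and without WT 0.1% A or B HOXC12 stood at 1.33 or 0.52 and HOXD11 at 1.39 or 0.56.

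Cluster sums were compared without a test. HOXC had ratios of 0.464 and 0.486 in WT 10% A and B and 0.829 and 0.680 in WT 0.1%, with 0.618 in ΔLEO1 10% B and 0.670 and 0.482 in ΔLEO1 0.1%. HOXD had 0.934 to 1.04 in WT 10% and 1.29 to 1.47 in WT 0.1%, with 0.928 in ΔLEO1 10% B and 1.03 to 1.17 in ΔLEO1 0.1%. WT libraries of the sera thus did not overlap in either cluster, nor in HOXA, at 0.435 to 0.570 and 0.655 in both. In HOXB, WT 10% was the higher of the sera, at 0.887 to 0.969 beside 0.869 and 0.870. With non-overlapping windows the sera overlapped there, at a log2 of -0.17 and -0.15 in WT 10% and -0.014 and -0.27 in WT 0.1%. In ΔLEO1 cells HOXC and HOXB overlapped between sera, and the lone 10% library lay above both others in HOXA, at 0.656 beside 0.507 and 0.597, and below them in HOXD. With non-overlapping windows the lone library lay above both others in HOXB and HOXC too. The log2 values were -0.11 beside -0.30 and -0.18 in HOXB, and -0.55 beside -0.72 and -0.78 in HOXC.

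**Figure D5:**
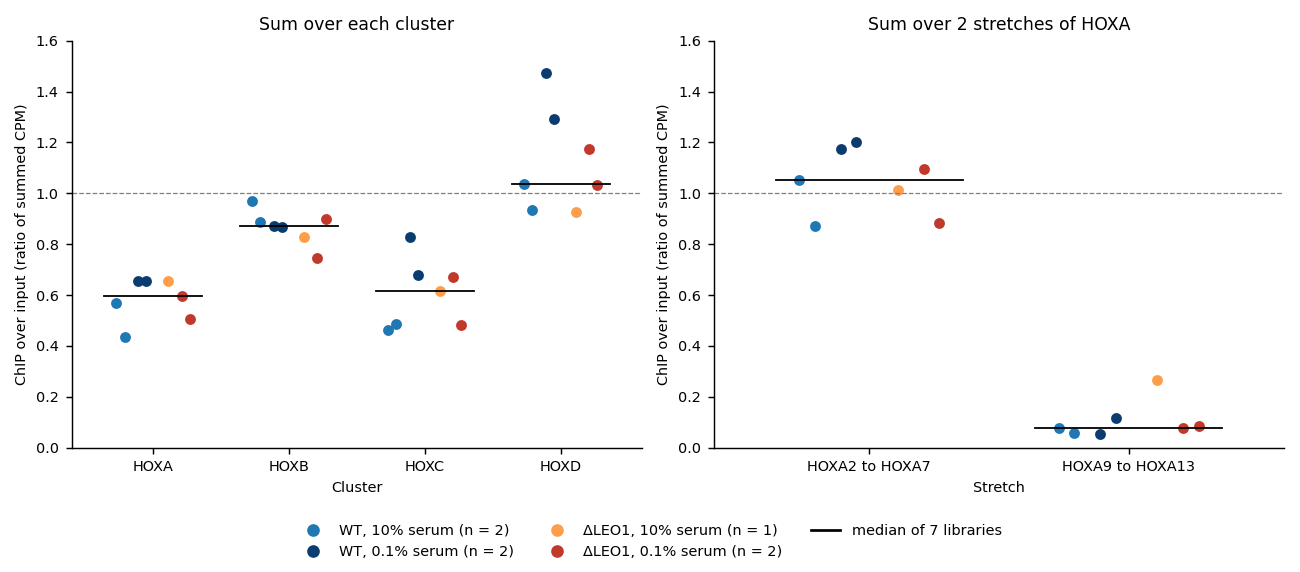
Ratios of ChIP to input CPM are plotted for the sums over each cluster and over the HOXA stretches from HOXA2 to HOXA7 and from HOXA9 to HOXA13, with a point per ChIP library coloured by group. HOXD in WT 0.1% lies at 1.29 to 1.47 and in WT 10% at 0.934 to 1.04 under TMM scaling, and in the posterior HOXA stretch ΔLEO1 10% B lies at 0.267 above the other 6.

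ChIP and input levels behind these WT ratios were looked at apart. HOXA had 3.30 and 2.92 ChIP CPM per window in WT 10% A and B and 3.18 and 3.47 in WT 0.1%, which overlap, while its inputs were 5.78 and 6.71 in 10% and 4.85 and 5.29 in 0.1% serum. HOXC ChIP went from 2.68 and 2.67 to 3.74 and 3.31 and its input from 5.77 and 5.49 to 4.51 and 4.87. In HOXD the ChIP values were 5.66 and 5.54 beside 6.01 and 5.98, and the inputs 5.46 and 5.93 beside 4.08 and 4.63. Inputs of these 3 clusters were thus lower in 0.1% serum in WT, whereas those of HOXB were 4.28 and 4.22 beside 4.26 and 4.26. By gene in WT inputs, 31 of the 39 HOX genes had a log2 difference of 0.1% from 10% serum below 0, with a median of -0.23 beside 0.01 for all genes and a range from -0.96 at HOXD13 to 0.17. None was called (edgeR smallest adjusted p = 0.270, DESeq2 also 0), 5 had an unadjusted p under 0.05, and 0.00174% of all genes were called lower and 0% higher. The inputs of ΔLEO1 and WT called none of the 39 in 0.1% serum, with 4 under an unadjusted p of 0.05 and 0% of all genes called, and none in 10% serum, with 6 and 0.00174% lower (edgeR). Without ΔLEO1 10% input B, some HOX genes were called in the latter. That fit leaves a single library in the group. Its share of all genes called is not given, so this is not read as a result about the HOX genes. With input differences taken off, 0 HOX genes were called in any genotype or serum contrast of ChIP. The part of the input in the cluster ratios was not tested.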

How the data were processed

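The deposited table used here holds raw counts, whole numbers of reads that the authors counted with csaw in windows reaching 1 kb to each side of annotated start sites, 1 column per library. The submitters' processing notes name bcl2fastq 2.20.0.422, STAR 2.7.10a and HOMER and the builds hg38 and dm6. The study scaled its ChIP to spiked-in fly chromatin; 0 windows lie on fly contigs, so this scaling was not used here and global changes of the mark cannot be seen. The second deposited table, counts over peak regions, served for peaks and for an alternative scaling.

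Windows with distinct coordinates were summed per gene symbol, so overlapping windows count a read more than once (21 HOX genes have overlapping windows of their own, 12 overlap those of another HOX gene, and 12 have 1 window). Counts were tested with edgeR 4.0.16 in R 4.3.3 by the two-sided quasi-likelihood test, with TMM, filterByExpr at a minimum count of 10, a prior count of 2 and Benjamini-Hochberg adjustment over all genes (57627 for ChIP over input, 52966 for ChIP and 57479 for input). The test was checked on simulated data, where it missed most 2-fold changes between groups of ChIP libraries, so that 0 calls do not show that levels were alike. Ratios and sums were computed in Python 3.11.15 and carry no test. The values of 1 HOX gene are not reported here, though it is in the counts of members. An adjusted p under 0.05 was called. Libraries held at least 2153836 reads, apart from the one left out, and genes with few reads are measured with less precision.

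The HOX genes and the lists of noncoding RNAs, neighbouring genes, HOX cofactors, Polycomb and Trithorax genes were chosen with earlier results of these data known. Named genes were, by rule, the 2 highest and 2 lowest of each cluster in ChIP over input, the 3 highest and 3 lowest of each contrast, any member called in a contrast, and the highest and lowest of each list; other named genes were chosen after their values were seen. Alternatives were no filter, no TMM, peak totals, DESeq2 1.42.0, 1 window per gene, non-overlapping windows, every window on its own, the library of 54 reads kept, ChIP differences net of input, the replicate letter as a block, and each library left out.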

Additional observations from a re-analysis of the deposited data

Results flagged for a closer look

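At HOXB4 and HOXB5, ChIP libraries of ΔLEO1 and WT did not overlap, in opposite directions in the 2 sera. Of all genes, 19.4% did not overlap with ΔLEO1 higher and 21.8% with it lower in 0.1% serum. In 10% serum the shares were 36.1% and 36.1%. The share of all genes with opposite directions is not given, so this is not read as particular to these genes. The log2 difference of ΔLEO1 from WT at HOXB5 was -0.98 in 0.1% serum and 0.86 in 10% serum. The difference between these effects was -1.85 (edgeR adjusted p = 0.835), on 2 to 11 reads per library. HOXB4 stood at -0.19 in 0.1% and 0.17 in 10% serum, a difference of -0.36 (edgeR adjusted p = 0.962). Neither difference passed the adjusted test, and the 10% values rest on the single ΔLEO1 library.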

How the results depend on the processing

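Library scaling changed the results most. With peak totals, 39 HOX genes were called lower and 0 higher over the groups, 39 either way in WT 10%, 37 in WT 0.1%, 33 in ΔLEO1 10% and 37 in ΔLEO1 0.1% (19, 8, 17, 15, 11 and 15 as reported), and 0 genes of the other lists higher. HOXA5 then lay at -1.27, HOXA2 -0.95, HOXB7 -1.31, HOXB4 -1.17, HOXC13 -1.46, HOXD1 -0.96, HOXD4 -0.61, HAGLROS -0.45 and EVX1 -0.89. Without TMM, 13 HOX and 11 list genes were called higher, HOXC12 lay at 0.21 and PBX4 at 0.15, and cluster sums over input were -0.53 for HOXA, 0.056 for HOXB and 0.42 for HOXD on the log2 scale, beside -0.79, -0.21 and 0.15. With 1 window per gene 5 HOX genes were called higher, HOXB7 lay at -0.30, HOXC13 at -0.078 and HOXB3 at -0.012 (ΔLEO1 serum contrast). DESeq2 called 2 HOX and 3 list genes higher, and 9, 5 and 9 HOX genes either way in WT 0.1%, ΔLEO1 10% and ΔLEO1 0.1%, with HOXC13 at -0.023. With every window on its own, 19 HOX genes had a window called higher, 28 either way in WT 0.1% and 25 in ΔLEO1 0.1%. Keeping the library of 54 reads left 4 HOX genes called higher, put HOXC13 at -0.040 and gave 1 call in the ΔLEO1 serum contrast. Non-overlapping windows put HOXC13 at -0.076. Of all genes called over the groups, 64.5% were higher without TMM and 0.0142% with peak totals, beside 53.7% as reported. Shares over all genes are not given for the other alternatives. The cause of the changes under the alternatives was not tested.

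Leaving out each library in turn gave 18 to 20 HOX genes lower and 5 to 9 higher, 14 to 18 either way in WT 10%, 11 to 16 in WT 0.1%, 9 to 12 in ΔLEO1 10% and 10 to 15 in ΔLEO1 0.1%, 46 to 50 list genes lower and 5 to 6 higher, and 0 to 2 in the input comparison of genotypes in 10% serum. Cluster sums ran from -0.83 to -0.73 for HOXA, -0.24 to -0.17 for HOXB, -0.84 to -0.70 for HOXC and 0.08 to 0.19 for HOXD. HOXC12 ran from -0.16 to 0.18 and HOXC13 from -0.085 to 0.18, HOXA9 in the 0.1% genotype contrast from -0.11 to 1.52, and HOXB13 in the WT serum contrast from -1.02 to 0.51. No genotype or serum contrast of ChIP gained a call at a HOX gene. Each of these fits left its group with a single library or none, and shares over all genes are not given for them. No pairing of the ChIP libraries by replicate letter was seen (correlation of A minus B between groups 0.00227 to 0.0137). Between input groups the correlation was 0.0135 to 0.111, highest for WT 10% with ΔLEO1 10%. Between ChIP and the input of the same group it was -0.00924 in WT 10%, -0.00594 in WT 0.1% and -0.0138 in ΔLEO1 0.1%. With low counts per gene, such values cannot show that the letters are unpaired. With the replicate block 18 HOX genes were called lower and 7 higher, and 0 in the genotype and serum contrasts. Of 56 named results 42 kept their direction throughout. A GC correction was not run, as a promoter was matched for 51.3% of members. Genes with few ChIP reads are measured with less precision.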

Other observations

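The proteins that work with HOX factors or keep their expression pattern were looked at in the same test of ChIP over input. Of the HOX cofactors, TALE homeodomain proteins that bind DNA together with HOX proteins, 6 of 8 tested were called lower (75%) and 0 higher, with a median of -0.41. MEIS1 was lowest at -2.41 (edgeR adjusted p = 1.07e-13), with 34 to 85 ChIP reads beside 263 to 674 in the inputs, and PBX4 was highest at -0.11 and was not called. Polycomb genes, whose products keep HOX genes silent, were all called lower among the 14 tested of 16, with a median of -1.15, from CBX6 at -2.89 to EZH1 at -0.57. Trithorax genes, which keep HOX genes active, were called lower in 8 of 8, with a median of -1.53, from RBBP5 at -2.94 to KDM6A at -0.72. Over all genes 33.8% were called lower and 39.3% higher, with a median of 0.13. None of the cofactor, Polycomb and Trithorax genes was called in a genotype or serum contrast (edgeR).

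Upstream sequence was compared as a description. Over 9 HOXA genes with a promoter, the rank correlation of ChIP over input was -0.17 with the number of CpGs and -0.03 with GC content. GC content was 48.8% to 78.0% in HOXA9, HOXA10, HOXA11 and HOXA13 and 47.2% to 70.8% in the others. On either strand, CCAAT was found in 18 of 27 HOX promoter entries (66.7%), beside 32.0% of all 35116 promoters of 250 bases, TATAAA in 5 (18.5% beside 10.7%), and TGATNNAT in 3 (11.1% beside 6.47%). The entries are not all distinct: HOXC4 and HOXC5 have the same sequence, which holds CCAAT, and HOXA3 and HOXA10 have several entries each. Of the 27, 19 have their start site at the centre of a HOX window.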
